A study of Mus musculus with 9 samples.

Results

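DNA replication and the step from G1 into S phase were followed through 41 genes that encode the replication machinery, the supply of its building blocks and the regulators that switch them on. They were chosen by gene symbol from 18061 genes listed in each of 9 libraries. All 41 were listed and passed the filter for testing, and 40 had at least 1 CPM in every library. Their RNA was measured in primary astrocytes cultured from the cortex of wild-type C57BL/6 mouse pups at postnatal day 1. One group, Aβ plus acetate, was given amyloid-beta (Aβ) at 1 µM for 5 days, starting on day 8 in culture, with 10 mM sodium acetate on the last of them. The acetate group had the same acetate for 1 day. The control group had neither. All 3 groups spent that day, from day 11 to harvest on day 12, in medium without glucose, so none shows replication genes in cells fed glucose to the end, and a group with Aβ and no acetate was not analysed here. Each group held 3 libraries, called biological replicates in their titles.

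The library names are written in 2 styles, which divide the libraries into 2 library sets. Set 2 held Aβ plus acetate 2 and 3, acetate 2 and 3, and control 3. Set 1 held Aβ plus acetate 1, acetate 1, and controls 1 and 2. What distinguishes the sets is not stated in the labels. Component 1 of a principal component analysis took 89.7% of the variance and separated them, so each member is given within each set. Values are CPM, read counts scaled to the library total, which are not corrected for gene length, so levels are compared between libraries and never between genes. Depth, read from the most frequent CPM value above 0 taken as a single read, was 35530000 to 53310000 reads in set 2 and 22160000 to 57030000 reads in set 1. Known astrocyte genes had summed CPM of 10855 to 13031.8 in set 2 and 8635 to 10141 in set 1 over 12 listed markers, of which 11 passed the filter. These markers differed between the sets in both directions, as counted below. Slc1a3, a glutamate transporter of astrocytes, was among the higher ones, averaging 2638 CPM in set 2 and 1243 CPM in set 1.

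Before S phase, ORC, Cdc6 and Cdt1 load rings of the MCM helicase onto origins, which is called licensing, and geminin then holds Cdt1 in check. Cdc45 and the GINS complex join the ring to make an active helicase, and polymerases, a sliding clamp and its loader copy the strands while ribonucleotide reductase and thymidylate synthase supply deoxynucleotides. Cyclin E and the E2F factors turn on many of these genes at the G1/S boundary, and astrocytes from newborn cortex still divide in culture.

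Because E2F factors read the promoters of many of these genes, the promoter stretches that hold an E2F-type motif are shown for members whose values are described below. The 250 bases upstream of each RefSeq start site (GRCm38.p6) were searched on both strands for TTTCCCGC, TTTCGCGC, TTTGCCGC and TTTGGCGC, whose matches may overlap each other. A match stood upstream of 8 of the 33 members with a promoter in the table (24.2%), against 430 of 11106 genes tested (3.87%). The following stretches run 5′ to 3′ on the gene's strand, with the matches in capitals, where a match on the other strand shows as its reverse complement. Mcm6 and Gins3 were added after their values were seen, Mcm6 as an MCM subunit that was lower in set 2 and Gins3 as a member that did not pass there.
Mcm5, chr8:75109338-75109385, plus strand: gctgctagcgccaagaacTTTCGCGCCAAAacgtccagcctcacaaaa
Mcm6, chr1:128359727-128359833, minus strand: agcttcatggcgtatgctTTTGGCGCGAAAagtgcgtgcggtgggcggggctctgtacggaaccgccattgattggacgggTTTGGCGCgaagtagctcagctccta
Mcm7, chr5:138172023-138172066, minus strand: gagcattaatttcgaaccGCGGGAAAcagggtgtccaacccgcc
Pola1, chrX:93632268-93632311, minus strand: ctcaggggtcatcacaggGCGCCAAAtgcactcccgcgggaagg
Gins3, chr8:95633500-95633543, plus strand: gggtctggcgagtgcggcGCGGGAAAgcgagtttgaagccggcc
Mcm5 and Mcm6 each hold overlapping matches on opposite strands, and Mcm6 a further one nearer its start. Mcm7 and Gins3 hold the same 8 letters. The letters thus stood upstream of 6 of the 29 members with a promoter that were lower in set 2 by the test below (20.7%) and of 2 of the 4 that did not pass (50%). Cdc6 and Uhrf1 also had a match, inside the span the authors' table gives for the gene, and Rfc3 had one next to that span; these are not printed. A match is a run of letters and not a measured binding site.

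The library set was the division along which the members' RNA differed. Most of the machinery was lower in set 2, with 37 of 41 members passing limma's test (adjusted p under 0.05), all of them lower, while 32.3% of the 14058 genes tested were called lower, 38.4% higher and 70.6% either way. Summed over the members, RNA was 505 to 553 CPM in the 5 libraries of set 2 and 871 to 992 CPM in the 4 of set 1. The median log2 difference (set 2 minus set 1, of log2(CPM + 1), adjusted for treatment) was -0.73 over the members and 0.050 over all genes tested. Set 2 and set 1 did not overlap, with set 2 lower, for 37 of 41 members, against 29.5% of genes tested lower and 34.1% higher. The difference was present within each treatment, with medians of -0.73 for Aβ plus acetate (41 of 41 lower), -0.62 for acetate (39 of 41) and -0.83 for control (40 of 41). In these bulk samples fewer dividing cells and less RNA of these genes per cell cannot be told apart. Because the meaning of the sets is unknown, any difference in culture, preparation or sequencing between them cannot be told apart either.

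**Figure D1:**
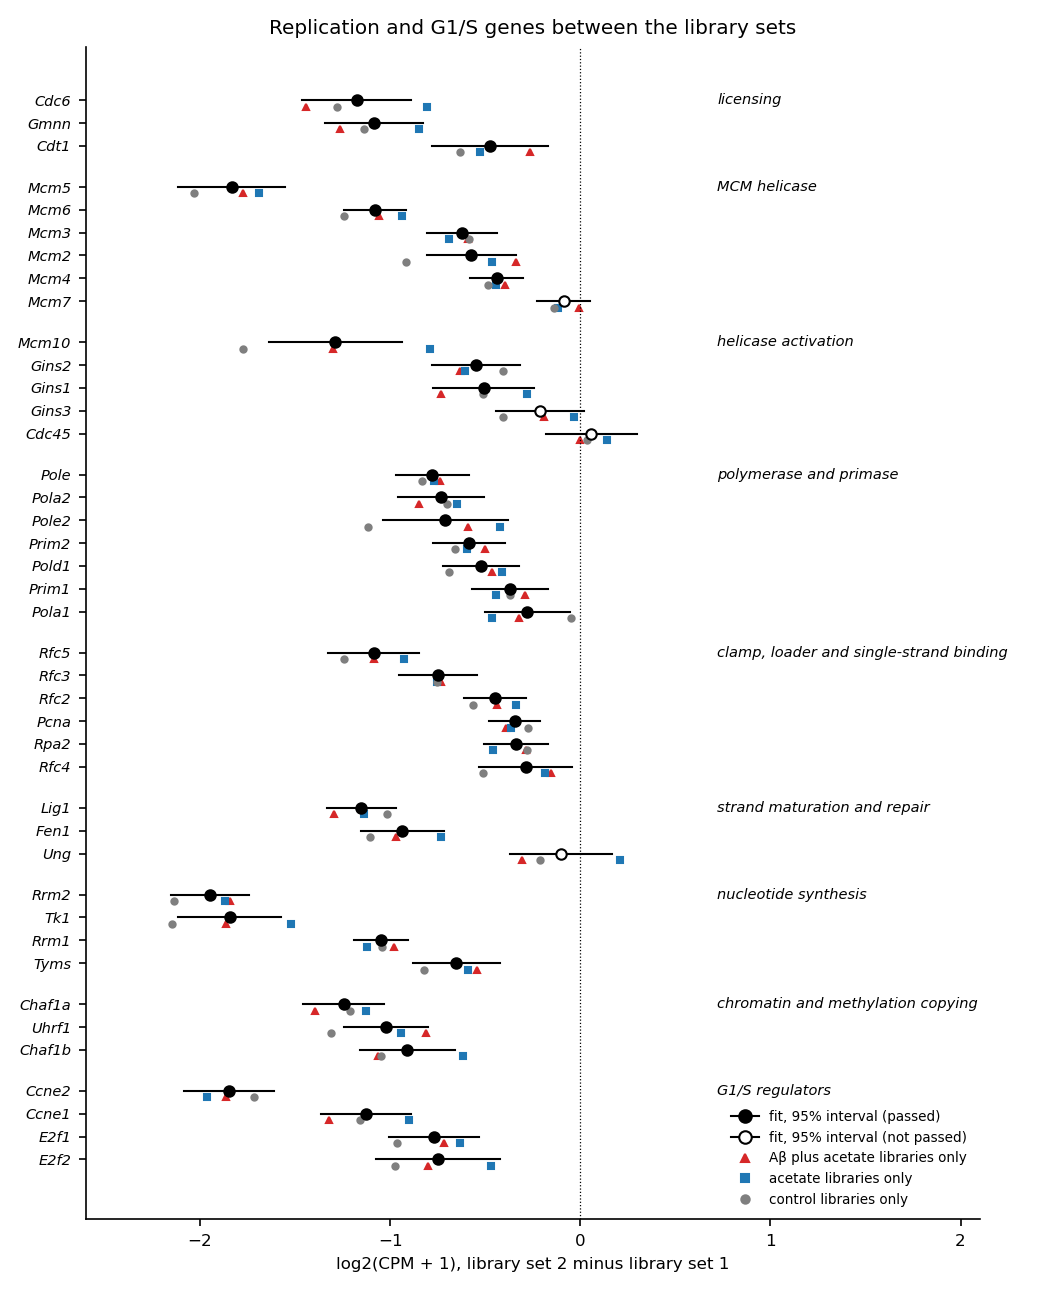
Log2 difference (set 2 minus set 1) of each of the 41 members, grouped by role, with bars for the 95% interval of the limma fit, open circles for members that did not pass, and small symbols for the difference within each treatment. All but Cdc45 lie below 0, from -1.95 for Rrm2, and Mcm7, Ung, Cdc45 and Gins3 are the 4 that did not pass.

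Nucleotide supply held the steepest difference, and all 4 members of that role were lower. Rrm2 is the small subunit of ribonucleotide reductase, which makes deoxynucleotides, and lies on chromosome 12 from 24708254 to 24714147 (mm10, as deposited). In set 2, Rrm2 had 15.7 and 14.2 CPM with Aβ plus acetate, 14.9 and 12.01 CPM with acetate and 14.2 CPM in the control. In set 1, Rrm2 had 56.2 CPM with Aβ plus acetate, 51.5 CPM with acetate and 61.4 and 70.9 CPM in the controls. The highest library of set 2 stood far below the lowest of set 1, and the set 2 mean was 0.237 of the set 1 mean (log2 -1.95, SE 0.094, limma adjusted p = 1.08e-08). Its partner Rrm1, the large catalytic subunit, had 48.5 and 46.97 CPM with Aβ plus acetate, 45.8 and 42.1 CPM with acetate and 49.5 CPM in the control in set 2. Rrm1 had 95.1 CPM with Aβ plus acetate, 96.7 CPM with acetate and 98.01 and 108 CPM in the controls in set 1. The large subunit was thus also lower without overlap, at 0.468 of the set 1 mean (log2 -1.05, SE 0.065, limma adjusted p = 8.27e-08). Tk1, the thymidine salvage kinase of S phase, had 1.38 and 1.44 CPM with Aβ plus acetate, 1.75 and 1.56 CPM with acetate and 1.55 CPM in the control in set 2. In set 1, Tk1 had 7.75 CPM with Aβ plus acetate, 6.63 CPM with acetate and 10.2 and 10.4 CPM in the controls. The sets stood far apart, with set 2 at 0.176 of the set 1 mean (log2 -1.84, SE 0.12, limma adjusted p = 1.49e-07). Tyms, thymidylate synthase, had 7.16 and 6.15 CPM with Aβ plus acetate, 5.92 and 4.89 CPM with acetate and 4.95 CPM in the control in set 2. In set 1, Tyms had 10.1 CPM with Aβ plus acetate, 8.62 CPM with acetate and 9.31 and 9.70 CPM in the controls. The sets did not overlap for Tyms, though its difference was smaller than that of the other 3 members of the role (log2 -0.65, SE 0.10, limma adjusted p = 0.00017).

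The 4 G1/S regulators were all lower in set 2. Ccne2, one of the 2 cyclins E that activate Cdk2, had 1.06 and 1.32 CPM with Aβ plus acetate, 1.41 and 1.73 CPM with acetate and 1.85 CPM in the control in set 2. In set 1, Ccne2 had 6.96 CPM with Aβ plus acetate, 9.004 CPM with acetate and 8.15 and 8.58 CPM in the controls. Its set 2 mean was 0.180 of its set 1 mean, without overlap (log2 -1.85, SE 0.11, limma adjusted p = 4.63e-08). Ccne1, the other cyclin E, had 2.93 and 2.98 CPM with Aβ plus acetate, 2.87 and 2.89 CPM with acetate and 2.93 CPM in the control in set 2. In set 1, Ccne1 had 8.89 CPM with Aβ plus acetate, 6.24 CPM with acetate and 7.75 and 7.76 CPM in the controls. Both cyclins E were therefore lower in each treatment's set 2 libraries (log2 -1.13, SE 0.11, limma adjusted p = 2.59e-06 for Ccne1). E2f1, the activator that drives S phase genes, had 11.1 and 10.8 CPM with Aβ plus acetate, 12.7 and 9.30 CPM with acetate and 9.74 CPM in the control in set 2. In set 1, E2f1 had 18.6 CPM with Aβ plus acetate, 17.4 CPM with acetate and 21.2 and 18.7 CPM in the controls. E2f1 did not overlap between the sets (log2 -0.77, SE 0.11, limma adjusted p = 6e-05). E2f2, a second activator, was the member with libraries under 1 CPM and had 0.619 to 1.63 CPM in set 2 and 1.72 to 2.74 CPM in set 1 (log2 -0.75, SE 0.15, limma adjusted p = 0.000795).

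All 3 licensing members were lower in set 2. Cdc6, which helps ORC load MCM rings, had 2.15 and 2.36 CPM with Aβ plus acetate, 2.72 and 2.43 CPM with acetate and 2.50 CPM in the control in set 2. In set 1, Cdc6 had 7.83 CPM with Aβ plus acetate, 5.24 CPM with acetate and 6.84 and 8.21 CPM in the controls. Cdc6 in set 2 was 0.346 of its set 1 mean (log2 -1.17, SE 0.13, limma adjusted p = 9.42e-06). Gmnn, geminin, the inhibitor of Cdt1, had 3.13 and 2.36 CPM with Aβ plus acetate, 3.46 and 3.12 CPM with acetate and 3.35 CPM in the control in set 2. In set 1, Gmnn had 7.95 CPM with Aβ plus acetate, 6.72 CPM with acetate and 8.14 and 9.03 CPM in the controls. The sets did not overlap, and geminin was lower in set 2 (log2 -1.08, SE 0.12, limma adjusted p = 7.83e-06). Cdt1, the second loader, had 15.9 and 13.4 CPM with Aβ plus acetate, 16.5 and 10.6 CPM with acetate and 13.3 CPM in the control in set 2. In set 1, Cdt1 had 17.7 CPM with Aβ plus acetate, 19.5 CPM with acetate and 24.3 and 18.4 CPM in the controls. Its sets came close, and its call was lost without control 3 (log2 -0.40, limma adjusted p = 0.0622) though it held in the full fit (log2 -0.47, SE 0.14, limma adjusted p = 0.00958).

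**Figure D2:**
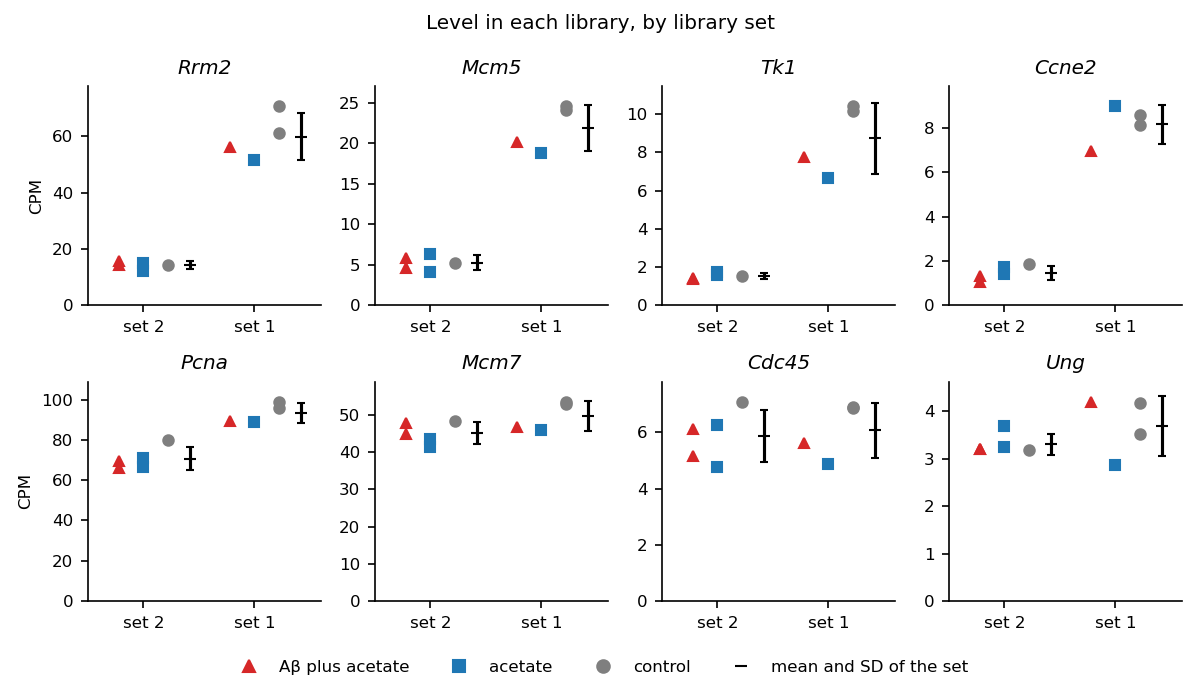
CPM in each library for 8 members, one panel each with its own axis from 0, with set 2 at the left of set 1 and symbols for Aβ plus acetate, acetate and control. Black bars give the mean and SD of the set. Rrm2, Mcm5, Tk1 and Ccne2 sit far lower in set 2, while those of Mcm7, Cdc45 and Ung overlap between the sets.

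The 6 subunits of the MCM ring, which are assembled together in equal number in the working helicase, did not move alike. Mcm5 had 4.57 and 5.87 CPM with Aβ plus acetate, 6.38 and 4.13 CPM with acetate and 5.21 CPM in the control in set 2. In set 1, Mcm5 had 20.2 CPM with Aβ plus acetate, 18.9 CPM with acetate and 24.6 and 24.1 CPM in the controls. Its set 2 mean was 0.238 of its set 1 mean (log2 -1.83, SE 0.13, limma adjusted p = 2.21e-07). Mcm6 had 33.7 and 33.5 CPM with Aβ plus acetate, 35.7 and 31.9 CPM with acetate and 31.01 CPM in the control in set 2. In set 1, Mcm6 had 71.2 CPM with Aβ plus acetate, 65.6 CPM with acetate and 72.5 and 77.2 CPM in the controls. The sets were again well apart (log2 -1.08, SE 0.074, limma adjusted p = 1.84e-07). Mcm2 had 32.5 and 26.5 CPM with Aβ plus acetate, 26.02 and 27.4 CPM with acetate and 22.9 CPM in the control in set 2. In set 1, Mcm2 had 37.4 CPM with Aβ plus acetate, 37.2 CPM with acetate and 46.2 and 42.1 CPM in the controls. Mcm2 was lower without overlap (log2 -0.57, SE 0.11, limma adjusted p = 0.000545), as were Mcm3 (-0.62) and Mcm4 (-0.44). Mcm7 stood apart from them. In set 2, Mcm7 had 47.8 and 44.96 CPM with Aβ plus acetate, 43.5 and 41.4 CPM with acetate and 48.3 CPM in the control. In set 1, Mcm7 had 46.6 CPM with Aβ plus acetate, 46.02 CPM with acetate and 53.5 and 52.9 CPM in the controls. Its libraries overlapped between the sets and it did not pass (log2 -0.087, SE 0.063, limma adjusted p = 0.235).

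Because each ratio is taken within a library, the ratio of each subunit's CPM to that of Mcm7 does not depend on depth. These ratios were chosen after the values were seen. Mcm5 over Mcm7 was 0.0956 to 0.147 in set 2 and 0.410 to 0.460 in set 1, and Mcm6 over Mcm7 was 0.643 to 0.820 in set 2 and 1.36 to 1.53 in set 1. Mcm2 over Mcm7 was 0.474 to 0.680 in set 2 and 0.795 to 0.863 in set 1, and Mcm3 over Mcm7 was 0.470 to 0.579 in set 2 and 0.684 to 0.788 in set 1. Mcm4 over Mcm7 was 0.775 to 0.959 in set 2 and 0.994 to 1.15 in set 1. Each of the 5 ratios was lower in every set 2 library than in any set 1 library, which is given as a description, with no test. The ratios show that the subunits changed unequally, not that Mcm7 itself did not change. Mcm7 lies on chromosome 5 from 138164583 to 138171884. In the GENCODE M21 annotation 10.8% of its exon bases overlap Ap4m1 and 2.16% Cops6, both on the other strand, with mean levels of 13.1 and 61.8 CPM. The labels do not say whether reads were counted by strand, so reads of Mcm7 and these neighbours might not be kept apart.

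**Figure D3:**
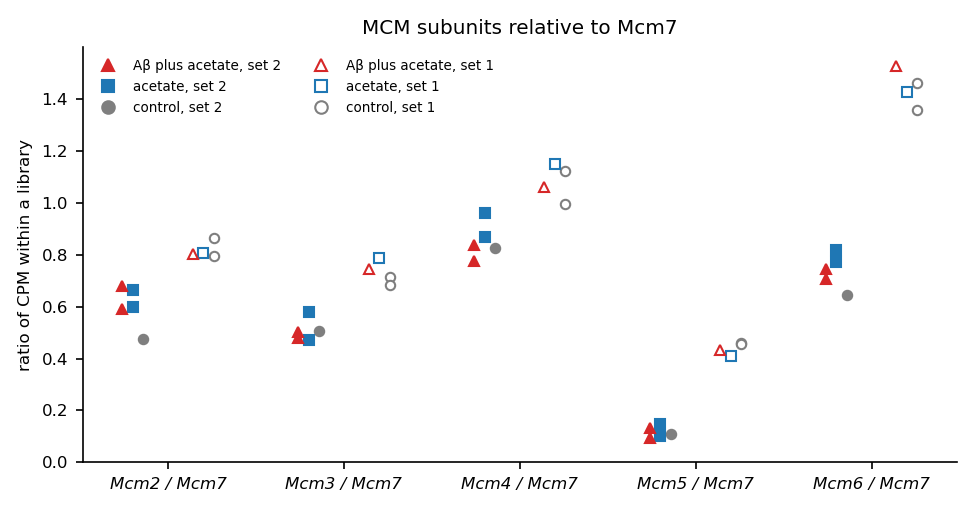
Ratio of the CPM of Mcm2, Mcm3, Mcm4, Mcm5 and Mcm6 to the CPM of Mcm7 in each library, filled symbols of set 2 at the left of open symbols of set 1. Mcm5 over Mcm7 averaged 0.116 in set 2 and 0.440 in set 1.

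Helicase activation was divided as well. Mcm10, which helps start the activated helicase, had 2.53 and 2.51 CPM with Aβ plus acetate, 3.25 and 2.43 CPM with acetate and 1.80 CPM in the control in set 2. In set 1, Mcm10 had 7.67 CPM with Aβ plus acetate, 5.61 CPM with acetate and 8.49 and 8.67 CPM in the controls. Mcm10 was lower without overlap (log2 -1.29, SE 0.16, limma adjusted p = 2.18e-05). Cdc45, a cofactor of the active helicase, had 6.12 and 5.16 CPM with Aβ plus acetate, 4.78 and 6.27 CPM with acetate and 7.09 CPM in the control in set 2. In set 1, Cdc45 had 5.63 CPM with Aβ plus acetate, 4.88 CPM with acetate and 6.91 and 6.86 CPM in the controls. Its libraries overlapped, and it was the member whose difference was above 0 (log2 0.059, SE 0.11, limma adjusted p = 0.646). Of the GINS subunits, Gins1 (log2 -0.51, SE 0.12, limma adjusted p = 0.0027) and Gins2 (log2 -0.55, SE 0.11, limma adjusted p = 0.000666) were lower. Gins3 had 3.91 to 4.27 CPM in set 2 and 4.40 to 5.72 CPM in set 1, without overlap, but did not pass (log2 -0.21, SE 0.11, limma adjusted p = 0.0919). It passed with median-of-ratios scaling (log2 -0.25, limma adjusted p = 0.0423) and without the trended and robust prior (log2 -0.21, limma adjusted p = 0.0378). In the annotation 70.7% of the exon bases of Gins2 overlap Gse1 on the other strand. For Cdc45, 2.43% overlap Ufd1 (mean 61.6 CPM), also on the other strand.

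All 7 polymerase and primase members were lower in set 2. Pole, the catalytic subunit of leading-strand polymerase epsilon, had 7.28 and 7.02 CPM with Aβ plus acetate, 6.63 and 6.77 CPM with acetate and 7.40 CPM in the control in set 2. In set 1, Pole had 12.6 CPM with Aβ plus acetate, 12.1 CPM with acetate and 14.9 and 13.1 CPM in the controls. Pole did not overlap between the sets (log2 -0.78, SE 0.087, limma adjusted p = 9.67e-06). Pola1, the catalytic subunit of the polymerase that extends primers, had 17.2 and 19.1 CPM with Aβ plus acetate, 19.5 and 18.005 CPM with acetate and 23.2 CPM in the control in set 2. In set 1, Pola1 had 22.9 CPM with Aβ plus acetate, 26.2 CPM with acetate and 21.2 and 27.2 CPM in the controls. Control 3 stood above 2 libraries of set 1, and the small difference (log2 -0.28, SE 0.10, limma adjusted p = 0.0295) was lost when any 1 of 5 libraries was left out, namely Aβ plus acetate 1, Aβ plus acetate 2, acetate 1, acetate 3 or control 2 (log2 -0.26 to -0.18). Its partner subunit Pola2 (-0.73), the primase subunits Prim1 (-0.37) and Prim2 (-0.59), Pold1 of lagging-strand polymerase delta (-0.52) and Pole2 of polymerase epsilon (-0.71) passed without overlap.

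The clamp, its loader and single-strand binding were lower in all 6 members. Pcna, the sliding clamp, had 69.3 and 66.3 CPM with Aβ plus acetate, 66.5 and 70.9 CPM with acetate and 80.2 CPM in the control in set 2. In set 1, Pcna had 89.2 CPM with Aβ plus acetate, 88.7 CPM with acetate and 95.8 and 98.9 CPM in the controls. It is often used as a proliferation marker, and the set 2 mean was 0.758 of the set 1 mean (log2 -0.34, SE 0.061, limma adjusted p = 0.000341). The loader subunits Rfc5 (-1.09), Rfc3 (-0.75) and Rfc2 (-0.45) and Rpa2, of the complex that coats single strands (-0.34), passed without overlap. Rfc4 passed narrowly (log2 -0.29, SE 0.11, limma adjusted p = 0.038), and its call was lost when any 1 library other than acetate 2 or control 1 was left out (log2 -0.35 to -0.17). Of their exon bases, 13.4% in Rfc4 overlap Eif4a2 (mean 356 CPM), 15.4% in Rfc5 overlap Wsb2 (115 CPM) and 19.1% in Rfc2 overlap Lat2 (2.96 CPM), all on the other strand.

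Of the 3 genes of strand maturation and repair, the flap nuclease Fen1 (log2 -0.94, SE 0.099, limma adjusted p = 6.29e-06) and the ligase Lig1 (log2 -1.15, SE 0.083, limma adjusted p = 2.6e-07), which finish the lagging strand, were lower in set 2. Ung, the glycosylase that removes uracil from DNA, had 3.19 and 3.21 CPM with Aβ plus acetate, 3.25 and 3.70 CPM with acetate and 3.18 CPM in the control in set 2. In set 1, Ung had 4.20 CPM with Aβ plus acetate, 2.86 CPM with acetate and 4.17 and 3.52 CPM in the controls. Ung overlapped between the sets and did not pass (log2 -0.10, SE 0.12, limma adjusted p = 0.467). Uhrf1, which brings the maintenance methyltransferase to new DNA, had 13.3 and 13.7 CPM with Aβ plus acetate, 13.1 and 11.1 CPM with acetate and 11.3 CPM in the control in set 2. In set 1, Uhrf1 had 24.4 CPM with Aβ plus acetate, 24.1 CPM with acetate and 30.3 and 28.5 CPM in the controls. Uhrf1 was lower without overlap (log2 -1.02, SE 0.10, limma adjusted p = 3.52e-06), as were Chaf1a (-1.24) and Chaf1b (-0.91), subunits of the factor that places histones behind the fork. Exons overlapping an antisense neighbour took 33.6% of Chaf1a (Ubxn6), 10.5% of Ccne2 (Ints8), 5.76% of Tk1 (Afmid) and 78.8% of Fen1 (Gm10143).

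Other genes of the same pathways did not all go the way of the members. Of 18 further licensing and helicase genes, 7 were higher in set 2 and 5 lower (median log2 0.14). Among the higher ones were Mtbp, a partner of the origin-firing factor treslin (1.52), and Orc2 of the origin recognition complex (0.94), and among the lower was Cdc7, the kinase that fires origins (-1.06). Of 21 further fork proteins, 3 were higher and 12 lower (median -0.41), with Clspn, a checkpoint mediator at forks, at -1.89, Exo1, an exonuclease, at -1.51, and Rpa1, the large RPA subunit, at -0.94. Of 15 other nucleotide supply genes, 4 were higher and 6 lower (median -0.0018), with Shmt2, the mitochondrial serine enzyme of one-carbon metabolism, at 1.53, the pyrimidine enzyme Umps at -0.84 and the dUTPase Dut at -0.89. Of 10 other chromatin genes, 1 was higher and 4 lower (median -0.14), with the histone chaperones Nasp (-1.11) and Asf1b (-1.11) and the methyltransferase Dnmt1 (-1.01) among the lower. These counts use the same limma threshold, beside 38.4% of all genes tested called higher and 32.3% lower.

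Regulators around the G1/S step moved in both directions. Of 17 other activators, 1 was higher in set 2, the transcription factor Myc (1.5), and 11 were lower (median -0.33), among them cyclin D3, Ccnd3 (-1.53), and the G1 kinases Cdk6 (-1.20) and Cdk2 (-0.85). Ccnd1, cyclin D1, did not pass (log2 -0.33, limma adjusted p = 0.0536). Of 15 repressors, 5 were higher and 7 lower (median -0.15). Those lower included the Cdk inhibitors Cdkn2a (-2.01) and Cdkn2c (-1.54) and the repressor E2f8 (-1.52). Cdkn1a, which encodes p21, averaged 142 ± 9.65 CPM in set 2 (SD, n = 5) and 249 ± 18.5 CPM in set 1 (SD, n = 4), and was lower too (-0.80). Of 15 p53 targets, 4 were higher and 8 lower (median -0.35). Gadd45a (2.95) and Sesn2 (2.30), both also stress genes, were among the higher, and Sesn1 (-1.24) among the lower.

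Mitotic genes were lower alongside the replication genes. Of 30 mitosis and spindle genes, 28 were lower in set 2 and 0 higher, with a median log2 of -0.73, the same as that of the members to 2 decimals. Birc5 (-1.29), Aurka (-1.06) and Cdk1 (-1.05), all needed for mitosis, had the smallest p-values. The proliferation marker Mki67 (-0.51) overlapped between the sets, and Top2a stood at -0.73. The motif described above was upstream of 1 of 27 mitotic genes with a promoter (3.70%).

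Cell type markers also differed between the sets, and their part in the members' difference was not tested. Sums are over all listed markers of a type, also those that failed the filter, and counts are over those tested. Of the 11 astrocyte markers described above, 6 were higher and 5 lower in set 2. Of 10 fibroblast and meningeal markers tested, 0 were higher and 10 lower in set 2, with summed levels of 1010 to 1281 CPM in set 2 and 2778 to 3023 CPM in set 1. Col3a1, a fibroblast collagen, averaged 6.49 ± 2.74 CPM in set 2 and 469 ± 26.3 CPM in set 1 (SD, n = 5 and 4). Of 9 oligodendrocyte lineage markers, 2 were higher and 4 lower, with sums of 241 to 365 CPM in set 2 and 777 to 1010 CPM in set 1. Olig1 alone averaged 66.2 CPM in set 2 and 561 CPM in set 1, beside mean sums of 298 and 893 CPM. The difference in the sums is thus mostly that of Olig1 and does not describe the markers as a whole. Of 14 microglia markers, 13 were higher and 1 lower, with sums of 527 to 779 CPM in set 2 and 199 to 356 CPM in set 1. Ependymal markers were called higher for 7 of 8 and lower for 0, with sums of 444 to 615 CPM in set 2 and 343 to 532 CPM in set 1. Neuronal markers had sums of 519 to 569 CPM in set 2 and 564 to 680 CPM in set 1 (3 of 7 higher, 2 lower), and endothelial ones 35.8 to 52.3 CPM in set 2 and 39.2 to 46.6 CPM in set 1 (1 of 3 higher, 2 lower). The defining endothelial genes Pecam1, Cdh5 and Tek were under 1 CPM in every library, as were the meningeal gene Slc6a13 and the oligodendrocyte gene Mog.

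The first treatment comparison asked whether acetate changed the replication genes of astrocytes without glucose. No member passed, and neither did any other gene (0% of 14058 genes called, smallest limma adjusted p = 1.0), while 5 of 41 members and 453 of 14058 genes had an unadjusted p under 0.05. The members' median log2 difference (acetate minus control, adjusted for library set) was -0.12, with 38 of 41 below 0, against a median of -0.023 over all genes tested, of which 60.1% were below 0. The medians within the sets were apart, at -0.016 in set 2 (23 of 41 below 0) and -0.23 in set 1 (37 of 41). The median was -0.077 without acetate 1, with 25 of 41 below 0, and -0.19 without control 3, with 37 of 41 below 0.

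Cdc45 and Mcm7, which are 2 of the 4 members that did not pass between the library sets, ranked first. Cdc45 had 4.88, 4.78 and 6.27 CPM with acetate and 6.91, 6.86 and 7.09 CPM in controls (log2 difference -0.36, 95% interval -0.65 to -0.074, limma adjusted p = 1.0). Every acetate library of Cdc45 was under every control. Mcm7 had 46.02, 43.5 and 41.4 CPM with acetate and 53.5, 52.9 and 48.3 CPM in controls (log2 difference -0.21, 95% interval -0.37 to -0.041, limma adjusted p = 1.0). It did not overlap either, which was so, with acetate lower, for these 2 of 41 members and for 1.55% of genes tested, beside 0.612% with acetate higher. Only the 4 members whose library sets overlapped could separate in this way, since acetate 1 is in set 1 and control 3 in set 2. The other 37 could not, whatever acetate did, so the share of members is not comparable with that of all genes. Within the sets the Cdc45 difference was -0.32 in set 2 and -0.42 in set 1, while that of Mcm7 was -0.18 in set 2 and -0.21 in set 1. Rpa2 had 19.4, 13.3 and 14.5 CPM with acetate and 21.2, 21.8 and 17.6 CPM in controls (log2 difference -0.24, 95% interval -0.44 to -0.037, limma adjusted p = 1.0). Pola2 had 11.9, 8.01 and 6.55 CPM with acetate and 16.8, 14.6 and 9.23 CPM in controls (log2 difference -0.32, 95% interval -0.59 to -0.047, limma adjusted p = 1.0). Both overlapped between the groups, with acetate 1 of set 1 standing above control 3 of set 2. That overlap was fixed in advance, since the library sets did not overlap for either gene. Within each set every acetate library was below the controls for both genes. Pcna, the fifth with an unadjusted p under 0.05, stood at -0.17 (95% interval -0.33 to -0.009).

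The 3 members above 0 with acetate were E2f2 (log2 difference 0.27, 95% interval -0.12 to 0.66, limma adjusted p = 1.0), Prim2 (0.075) and Rfc2 (0.056). By role, all members were below 0 in licensing, the MCM ring, helicase activation, strand maturation, nucleotide synthesis and chromatin, with medians of -0.14, -0.082, -0.12, -0.10, -0.19 and -0.13. Rrm2 stood at -0.24, Mcm5 at -0.19, Cdc6 at -0.16, Uhrf1 at -0.13, Pole at -0.16 and Gmnn at -0.14, none past the threshold. Pola1 (-0.08), Cdt1 (-0.093), Ung (-0.079), Ccne1 (-0.11), Mcm2 (-0.051), Tyms (-0.031), E2f1 (-0.031) and Ccne2 (-0.026) lay nearer 0. Set 1, which had more replication RNA, holds 2 of 3 controls and 1 of 3 acetate libraries, and without the set in the fit the median was -0.35.

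The acetate difference was tested for a change between the sets, and no gene passed (0% called, with 2 members and 1016 of 14058 genes at an unadjusted p under 0.05). Mcm10 had the smallest p of the members in that test. Mcm10 had 3.25 and 2.43 CPM with acetate and 1.80 CPM in the control of set 2. In set 1 it had 5.61 CPM with acetate and 8.49 and 8.67 CPM in the controls. The log2 differences were 0.45 in set 2 and -0.54 in set 1, and these 2 differed by 0.98 (SE 0.27, limma adjusted p = 0.421). Tk1, at 0.06 in set 2 and -0.56 in set 1, was the other member (difference 0.62, SE 0.25, limma adjusted p = 0.638).

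**Figure D4:**
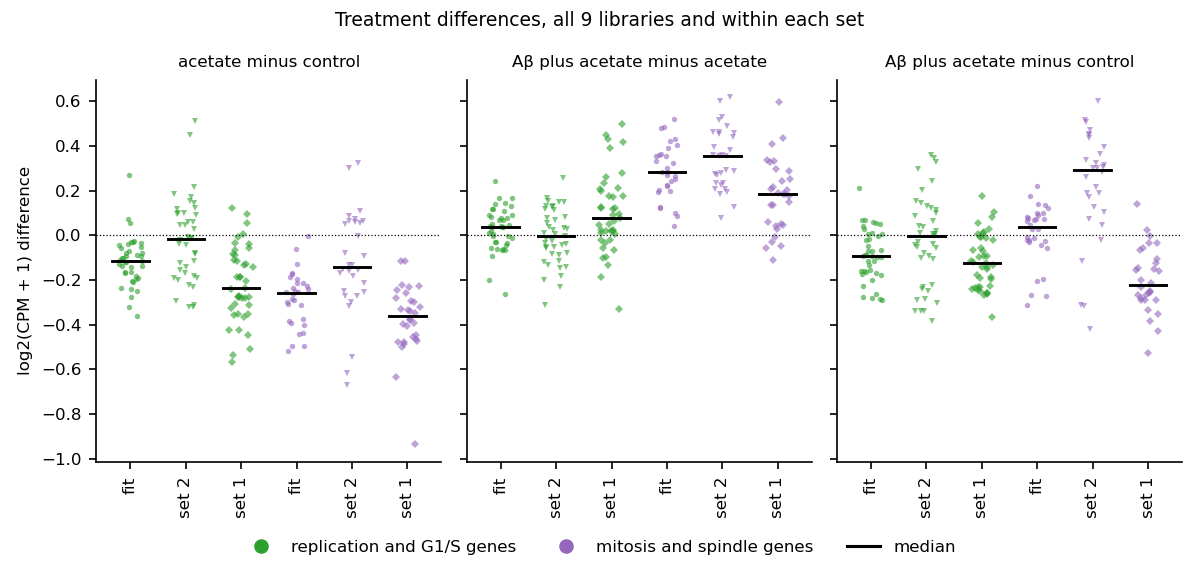
Log2 differences of the 41 members and of 30 mitosis and spindle genes for acetate minus control, Aβ plus acetate minus acetate and Aβ plus acetate minus control. Each is shown in the fit with the library set and within set 2 and set 1, with a line at the median. In acetate minus control the members' median lies at -0.12 in the fit, -0.016 in set 2 and -0.23 in set 1.

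The second treatment comparison set Aβ plus acetate against acetate alone. Both groups hold 2 libraries of set 2 and 1 of set 1. No member and no gene passed (0% called, smallest limma adjusted p = 1.0), with 0 of 41 members and 436 of 14058 genes at an unadjusted p under 0.05. The median log2 difference was 0.039 over the members, with 26 of 41 above 0, and 0.020 over all genes tested. The medians were -0.0039 in set 2 and 0.076 in set 1. The median turned to -0.0025 without acetate 1, with 19 of 41 above 0, and was 0.092 without acetate 2, 0.019 without acetate 3 and 0.018 without Aβ plus acetate 2. It was 0.011 with median-of-ratios scaling and 0.066 with array quality weights. Ccne2 had 6.96, 1.06 and 1.32 CPM with Aβ plus acetate and 9.004, 1.41 and 1.73 CPM with acetate (log2 difference -0.26, 95% interval -0.54 to 0.0099, limma adjusted p = 1.0). Tyms had 10.1, 7.16 and 6.15 CPM with Aβ plus acetate and 8.62, 5.92 and 4.89 CPM with acetate (log2 difference 0.24, 95% interval -0.023 to 0.51, limma adjusted p = 1.0). The differences within the sets had the same sign in both. They were -0.23 in set 2 and -0.33 in set 1 for Ccne2, and 0.26 in set 2 and 0.21 in set 1 for Tyms. Within each set the groups did not overlap for either gene, though set 1 holds 1 library of each group. Across both sets the groups overlapped. That overlap was fixed in advance, since neither gene's sets overlap and each group holds libraries of both sets.

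The other members with the smallest p-values were Ccne1 (0.17), Rfc3 (0.14) and Rrm2 (0.14) above 0, and E2f2 (-0.20), Mcm4 (-0.065) and Pola1 (-0.092) below 0. The groups overlapped for 41 of 41 members, beside 1.91% of genes tested without overlap and higher and 0.555% without overlap and lower. For the 37 members whose library sets did not overlap this was fixed in advance, since each group holds libraries of both sets. For them it therefore says nothing about treatment. Mcm2 (0.092), Mcm5 (0.035), Pcna (-0.01), Cdc6 (0.077), Cdt1 (0.043), Gmnn (-0.063), Pole (0.07), E2f1 (0.039), Uhrf1 (0.11) and Ung (0.083) were among the rest. For Pcna the 95% interval was -0.16 to 0.14, and for Rrm2 -0.097 to 0.38. In the test of a change between the sets 0% of genes were called, and 1 member, Cdc6, had an unadjusted p under 0.05 (518 of 14058 genes).

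The last comparison set both agents against neither. No member and no gene passed (0% called, smallest limma adjusted p over the members = 0.999), with 5 of 41 members and 505 of 14058 genes at an unadjusted p under 0.05. The median was -0.094 over the members, 30 of 41 below 0, and -0.0049 over all genes tested, and within the sets it was -0.0047 in set 2 and -0.13 in set 1. Without control 3 it was -0.16, with 36 of 41 below 0. Rpa2 had 18.03, 14.6 and 14.6 CPM with Aβ plus acetate and 21.2, 21.8 and 17.6 CPM in controls (log2 difference -0.23, 95% interval -0.43 to -0.024, limma adjusted p = 0.999). Pcna had 89.2, 69.3 and 66.3 CPM with Aβ plus acetate and 95.8, 98.9 and 80.2 CPM in controls (log2 difference -0.18, 95% interval -0.34 to -0.019, limma adjusted p = 0.999). In both genes the groups overlapped, with the highest treated library, Aβ plus acetate 1 of set 1, above control 3 of set 2. This too was fixed in advance by library sets that did not overlap. Within each set every treated library was below the controls for both genes. Chaf1a (-0.26), Pola2 (-0.28) and Ccne2 (-0.29) also had an unadjusted p under 0.05, while Tyms (0.21), Prim2 (0.07), Rfc2 (0.052) and Prim1 (0.06) led the members above 0. Cdc45 and Mcm7 were the 2 members whose treated libraries were all under the controls (1.37% of genes tested). Here too only the 4 members whose library sets overlapped could separate in this way.

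Summed levels of cell type markers varied among the treatment libraries as well, and their part in the members' values was not tested. None of the microglia, oligodendrocyte lineage or fibroblast markers passed limma's test in a treatment comparison. The microglia markers, 14 of them tested, summed to 305 to 627 CPM with Aβ plus acetate, 199 to 779 CPM with acetate and 338 to 652 CPM in controls. For acetate minus control their median log2 difference was 0.26 in set 2 and -1.05 in set 1 (14 of 14 below 0), and for Aβ plus acetate minus acetate it was -0.60 in set 2 (14 of 14 below 0) and 0.91 in set 1 (0 below 0). In the test of a change between the sets 13 and 14 of the 14 had an unadjusted p under 0.05 in these comparisons, with smallest limma adjusted p of 0.0906 and 0.146. The median for Aβ plus acetate minus control was -0.41 in the fit, 14 of 14 below 0. The oligodendrocyte lineage markers, 9 of them tested, summed to 290 to 825 CPM with Aβ plus acetate, 269 to 777 CPM with acetate and 241 to 1010 CPM in controls. Their acetate minus control median was 0.36 in set 2 (0 below 0) and -0.45 in set 1 (8 below 0). The 10 fibroblast markers had an acetate minus control median of 0.36 in set 2 and -0.00039 in set 1.

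The 3 comparisons share libraries, the first 2 sharing acetate and the first and last sharing control, so their values are not independent. Cdc45 stood at -0.36 for acetate minus control, 0.078 for Aβ plus acetate minus acetate and -0.28 for Aβ plus acetate minus control. Mcm7 had -0.21, 0.089 and -0.12 in that order, and Tyms -0.031, 0.24 and 0.21. The 30 mitotic genes had medians of -0.26 (30 of 30 below 0) for acetate minus control, 0.29 (30 of 30 above 0) for Aβ plus acetate minus acetate and 0.038 for Aβ plus acetate minus control (0.29 in set 2 and -0.22 in set 1). Of them 12, 20 and 3 had an unadjusted p under 0.05 in that order, and 0 passed. Kif20a, a kinesin of cytokinesis, had 20.6, 13.9 and 13.5 CPM with Aβ plus acetate, 16.1, 8.40 and 8.78 CPM with acetate and 22.2, 23.9 and 10.9 CPM in controls. Its level in each Aβ plus acetate library was above that of the acetate libraries of the same set.

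Of the other pathway genes, 0 passed in any treatment comparison. For acetate minus control, 15 of 18 further licensing genes, 17 of 21 fork proteins, 13 of 15 nucleotide genes and 9 of 10 chromatin genes were below 0, with medians of -0.066, -0.073, -0.065 and -0.076. Of them 1, 0, 0 and 2 had an unadjusted p under 0.05. For Aβ plus acetate minus acetate the medians of these 4 lists were -0.013, 0.0088, 0.014 and 0.014. Dbf4, the activator of the Cdc7 kinase, at -0.26, Nasp at -0.23, Asf1b at -0.40 and the repressor E2f7 at -0.40 were among the smallest p-values of their lists for acetate minus control.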

How the data were processed

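RNA from 9 cultures was enriched for poly-A mRNA, made into libraries with 14 PCR cycles and sequenced as paired reads of 100 bases, per the labels' protocols. Tools listed in the submitters' processing notes are STAR 2.7.3a, Partek and FastQC, with mm10 and GRCm39 as builds. The counting tool, its strand setting and the annotation are not given in the sources used here. The authors deposited CPM per gene, which were used as given, and a second table of scores made from them, which was not used. Deposited positions overlapped mm10 genes of GENCODE M21 for 99.82% of 17644 shared symbols, so mm10 is named as their build. Only 93.5 to 94.6% of low values were whole reads within 0.1, so the values were not turned back into reads and no count test was used.

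Genes with at least 1 CPM in at least 3 libraries (14058) were fitted on log2(CPM + 1) with limma 3.58.1 in R 4.3.3, with group and library set as terms, all 9 libraries in one fit, a trended and robust prior, two-sided tests and Benjamini-Hochberg adjustment at 0.05. The pseudocount makes differences of low genes smaller. The residual degrees of freedom were 5, and 3 for the test of a change between sets. The fit was tested on simulated data. The titles call the samples biological replicates but do not name separate cultures or litters, so p-values measure the spread between these samples.

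The members, the other gene lists, the use of the library set and the alternatives were chosen with earlier results of these data known. Members given in full were, for each comparison, up to 4 higher and up to 4 lower ones of smallest unadjusted p and 15 further ones whatever their result. Outside this rule, Mcm6, Mcm7 and Mcm10 were given library by library between the library sets after their values were seen. Of the other lists up to 3 genes by p were named, with Cdkn1a, Ccnd1, Cdk2, Mki67 and Top2a. Libraries that share a number in their library names deviated together (r across genes 0.761 to 0.947 in 7 of 7 pairs), and each of these pairs lies within a set. With the set removed, r was over 0.1 in 0 of 7 pairs (-0.499 to -0.105). Residuals of that fit sum to 0 within each group and set, which by itself pulls r within a set below 0. These r therefore cannot decide whether the number carries more than the set. The alternatives were other pseudocounts, filters, scaling, priors and weights, the fit without the set, each comparison's own 6 libraries, blocks by number, values within sets, and each library left out in turn.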

Additional observations from a re-analysis of the deposited data

How the results depend on the processing

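No treatment comparison called a member or any gene under any alternative. Between the library sets, 29 to 38 members were called lower and 0 higher under each other setting that estimates this difference, except the replicate block by title number with the set kept, which called 19 members and 4746 genes (2528 higher, 2218 lower) with a member median of -0.58 and Cdt1 at 0.084. Samples sharing a title number had r over 0.1 in 7 of 9 pairs, and in 1 of 9 with the set removed. Removing the set by itself pulls r of libraries in the same set below 0. These values therefore cannot decide whether title numbers pair the samples. The 29 came from a filter at a mean of 5 CPM, which tests fewer members. The replicate block by library-name number changed no call and put Cdt1 at 0.12 for acetate minus control and 0.16 for Aβ plus acetate minus control. The set median was -0.54 with a pseudocount of 5. Within set 2 and set 1 the acetate minus control medians were -0.016 and -0.23.

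Without the library set, member medians were -0.33 for Aβ plus acetate minus control and -0.35 for acetate minus control. Then 0 of 41 members (11 in the fit) were above 0 for Aβ plus acetate minus control and 1 (3 in the fit) for acetate minus control. Members given in full that moved below 0 by more than 1 SE were, for acetate minus control, Prim2 (-0.12) and Rfc2 (-0.093). For Aβ plus acetate minus control these were Tyms (-0.0059), Prim2 (-0.13), Rfc2 (-0.097), Prim1 (-0.062), Mcm2 (-0.15), E2f1 (-0.25) and Ccne1 (-0.32).

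With 1 library left out, the set comparison called 8763 to 10095 genes and 35 to 37 members, and its member median ranged from -0.78 to -0.64 (without control 3). Among members given in full, uncalled ones whose sign changed by more than 1 SE ranged as follows. For acetate minus control, Pola1 ranged from -0.20 to 0.073, Cdc6 from -0.25 to 0.082, Gmnn from -0.20 to 0.021, Ccne1 from -0.15 to 0.039 and Ung from -0.16 to 0.13. For Aβ plus acetate minus acetate, Cdc6 ranged from -0.11 to 0.18, Ung from -0.073 to 0.18 and Cdt1 from -0.13 to 0.19. For Aβ plus acetate minus control, Mcm2 ranged from -0.19 to 0.20, Ccne1 from -0.076 to 0.093 and Uhrf1 from -0.21 to 0.12. Among the 1511 values of members given in full, a further 55 changed sign by less than 1 SE, passed in neither fit and were counted as no change. The cause of these changes was not tested. Depth limits low genes such as E2f2, whose levels reach under 1 CPM.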
